A study of Mus musculus with 8 samples.

Results

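p53 is a transcription factor that is held at low activity in unstressed cells and that, when DNA is damaged or other stress is sensed, switches on genes for cell cycle arrest, DNA repair, metabolism and cell death. Its main brake is a negative feedback loop. Mdm2 marks p53 protein for destruction and is itself transcribed under p53, while the related protein Mdm4 binds p53 and masks its activating domain. In oligodendrocyte precursor cells (OPCs), which divide in response to PDGF-AA and stop dividing as they become oligodendrocytes (OLs), p53 and the cell cycle inhibitor encoded by Cdkn1a are known as parts of the machinery of cell cycle exit. The 10 genes described here are Trp53 itself, the regulators Mdm2 and Mdm4, the feedback gene Ccng1, the stress gene Trp53inp1, the sestrins Sesn1 and Sesn2, the death genes Bbc3 (Puma) and Bax, and the RNA-binding factor Zmat3.

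These 10 genes were taken by symbol from the 24346 genes of the expression table. All 10 had a mean of at least 1 FPKM (fragments scaled by transcript length and by the mapped fragments of the library) over the libraries and so stood among the 12328 genes tested. The genes were chosen by their FPKM in these same libraries, with this contrast known, so that their differences between genotypes are a description and carry no p-value.

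RNA-seq was performed on immature oligodendrocytes (iOLs) from Med23+/+ and Med23-/- OPCs, with 4 libraries of each genotype. Med23 encodes a subunit of Mediator, the complex that links transcription factors to RNA polymerase II. Med23-/- cells carried floxed Med23 (Med23 fl/fl) and Olig1-cre, a Cre recombinase expressed in the OL lineage, whereas the labels give the Med23+/+ group only as WT (control littermates elsewhere in the study were Med23 fl/fl). In both groups primary OPCs were purified from mouse brain (P7, per the methods of the study) by immunopanning on an antibody to CD140a after depletion of endothelial cells and microglia, grown in the mitogens PDGF-AA (10 ng/ml) and NT-3 (1 ng/ml), and then exposed for 1 day to the thyroid hormone T3 (15 nM), which induces differentiation, together with CNTF (10 ng/ml). Whether the replicates were separate cultures or animals is not stated, so the p-values below measure only the spread between these libraries, which may be technical. FPKM is scaled by transcript length, so levels of different genes can be set side by side on it. No counts were used here, so sequencing depth is unknown.

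The upstream sequences of the genes are shown first, because p53 binds DNA through short decamers and several of these genes are textbook p53 targets. The decamer, called the p53 half-site, consists of 3 purines, a C, A or T in both middle positions, a G and 3 pyrimidines, and reads as the same pattern on either strand. In the RefSeq promoter windows (GRCm38.p6, from 250 bases before to 50 bases after an annotated start), 8 of the 10 genes had an entry, with 12 windows in all, and Trp53inp1 and Zmat3 had none. A p53 half-site was present in 5 of the 12 windows, 1 window each of Trp53, Mdm2, Ccng1, Sesn1 and Bax. Over all 32851 windows of 27025 genes, 8.36% held one. No member window held a pair of half-sites separated by 0 to 13 bases, which 0.0731% of all windows did. The 60 bases around each decamer are printed 5′ to 3′ on the strand of the gene, with the half-site in capitals:
Trp53, chr11:69580259-69580318, plus strand, 75 bases upstream of the start: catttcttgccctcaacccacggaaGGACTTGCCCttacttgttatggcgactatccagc
Mdm2, chr10:117710910-117710969, minus strand, 186 bases upstream of the start: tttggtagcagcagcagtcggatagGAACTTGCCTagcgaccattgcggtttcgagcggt
Ccng1, chr11:40755437-40755496, minus strand, 185 bases upstream of the start: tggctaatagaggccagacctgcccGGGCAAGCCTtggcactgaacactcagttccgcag
Sesn1, chr10:41887241-41887300, plus strand, 173 bases upstream of an annotated start inside the gene: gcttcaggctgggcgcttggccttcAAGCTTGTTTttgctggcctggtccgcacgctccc
Bax, chr7:45467065-45467124, minus strand, 201 bases upstream of the start: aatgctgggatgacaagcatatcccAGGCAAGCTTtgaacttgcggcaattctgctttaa
These are matches of letters in a window and not measured binding sites, and the intronic and more distant sites through which p53 is known to act lie outside the windows. The GC box GGGCGG, the element bound by Sp1, was searched on both strands in the same windows. It was present in 8 of the 12, those of Sesn1, Sesn2, Mdm2, Bbc3 and Bax, and in 35.7% of all windows, while the windows of Trp53, Ccng1 and Mdm4 held none.

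Trp53 (chr11:69580359-69591873, plus strand, GENCODE vM21 on mm10, as for all gene positions below) overlapped between the genotypes. Its FPKM was 37.8, 34.4, 33.7 and 41.3 in Med23+/+ replicates 1 to 4, and 35.5, 31.3, 24.9 and 40.4 in Med23-/- replicates 1 to 4. The lowest value was that of Med23-/- replicate 3. The mean was 36.8 ± 3.52 FPKM (SD, n = 4) in Med23+/+ and 33.0 ± 6.60 FPKM in Med23-/-, a log2 fold change of -0.17 (SE 0.14) on the log2(FPKM + 1) scale, the scale of every log2 fold change below. Without Med23-/- replicate 3 the difference was -0.04, and without Med23-/- replicate 4 it was -0.27. These are transcript levels, and p53 is regulated in large part through the stability of its protein, which RNA-seq does not measure. Trp53 and Wrap53 are annotated head to head on opposite strands with 104 bases between them and no overlap, and use of strand in the counting was not stated.

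Mdm2 (chr10:117688875-117710758, minus strand), the E3 ubiquitin ligase that targets p53 and a direct p53 target, was the only one of the 10 genes with every Med23-/- library below every Med23+/+ library. Its FPKM was 35.4, 34.7, 37.4 and 34.5 in Med23+/+ and 24.8, 27.7, 27.8 and 29.0 in Med23-/-. The means were 35.5 ± 1.33 and 27.3 ± 1.80 FPKM, a ratio of 0.769 and a log2 fold change of -0.37 (SE 0.07), which stayed between -0.40 and -0.32 with each library left out in turn. The half-site upstream of its start is the one printed above.

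Mdm4 (chr1:132959484-133030561, minus strand), which restrains p53 without destroying it and pairs with Mdm2, showed no such separation. It stood at 33.3, 33.7, 35.9 and 33.1 FPKM in Med23+/+ and at 33.9, 35.0, 35.2 and 30.3 FPKM in Med23-/-. The log2 fold change was -0.02 (SE 0.07), and its sign changed under quantile normalization (0.06), in replicates 1 and 2 alone (0.04) and without Med23-/- replicate 4 (0.03) or Med23+/+ replicate 3 (0.01). The ratio of the 2 regulators within a library was 1.06, 1.03, 1.04 and 1.04 in Med23+/+ (1.04 ± 0.0122) and 0.730, 0.790, 0.790 and 0.957 in Med23-/- (0.817 ± 0.0976). All Med23-/- libraries lay under 1 and all Med23+/+ libraries above it, with Med23-/- replicate 4 closest to the controls. The ratio of Mdm2 to Trp53 was 0.973 ± 0.117 in Med23+/+ and 0.855 ± 0.195 in Med23-/-, where the groups overlapped.

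Ccng1 (chr11:40748552-40755311, minus strand) encodes cyclin G1, a p53 target that brings protein phosphatase 2A to Mdm2, and it differed most of the 10. Its FPKM was 43.1, 51.5, 37.4 and 36.4 in Med23+/+ and 63.7, 69.3, 67.1 and 77.1 in Med23-/-. Every Med23-/- library was above every Med23+/+ library, the lowest at 63.7 and the highest control at 51.5. The means were 42.1 ± 6.92 and 69.3 ± 5.68 FPKM, a ratio of 1.65 and a log2 fold change of 0.72 (SE 0.12). The log2 fold change was 0.49 in replicates 1 and 2 alone and 0.94 in replicates 3 and 4 alone. It stayed between 0.653 and 0.815 with each library left out in turn.

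Trp53inp1 (chr4:11156431-11174379, plus strand), a p53 target with roles in autophagy and cell death, was also separated between the genotypes. It was read at 38.4, 42.6, 33.1 and 31.3 FPKM in Med23+/+ and at 48.6, 53.8, 46.7 and 47.2 FPKM in Med23-/-. The means were 36.3 ± 5.15 and 49.1 ± 3.25 FPKM, a ratio of 1.35 and a log2 fold change of 0.43 (SE 0.10). In both genotypes replicate 2 was the highest.

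**Figure D1:**
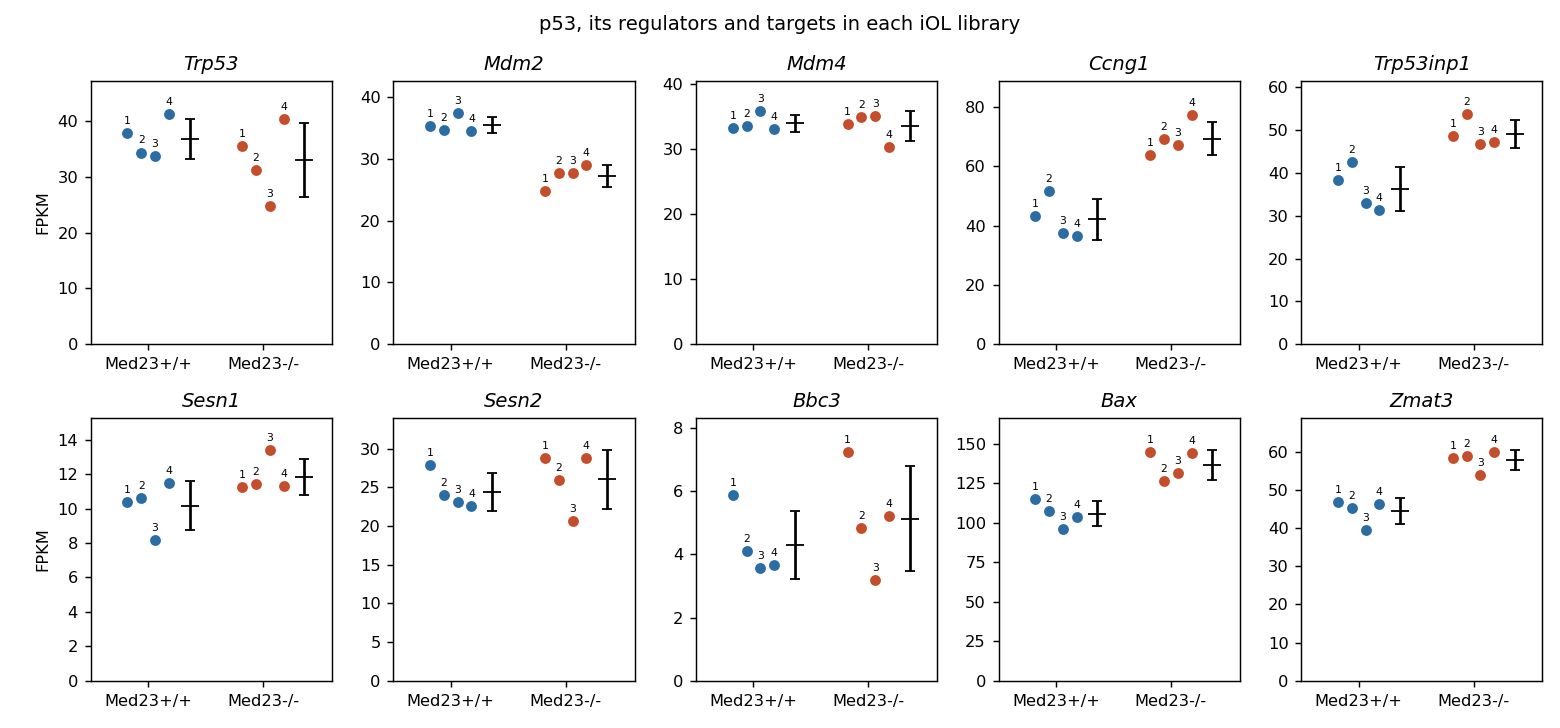
FPKM (vertical axes, starting at 0) of each of the 10 genes in every iOL library, with Med23+/+ in blue and Med23-/- in orange, points numbered by replicate and the black mark giving the mean ± SD (n = 4). Ccng1, Trp53inp1, Bax and Zmat3 are higher in every Med23-/- library, Mdm2 is lower in every one, and the other 5 genes overlap.

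The sestrins are stress proteins that hold back the growth kinase complex mTORC1 by binding GATOR2, and Sesn1 and Sesn2 are p53 targets. Sesn1 (chr10:41809935-41908424, plus strand) stood at 10.4, 10.6, 8.15 and 11.5 FPKM in Med23+/+ and at 11.2, 11.4, 13.4 and 11.3 FPKM in Med23-/-, a log2 fold change of 0.21 (SE 0.11). The groups overlapped, and only Med23-/- replicate 3 was above all controls. The difference ranged from 0.12 without Med23+/+ replicate 3 to 0.27 without Med23+/+ replicate 4. Sesn2 (chr4:132492032-132510501, minus strand) was at 27.9, 24.0, 23.1 and 22.6 FPKM in Med23+/+ and at 28.8, 26.0, 20.6 and 28.7 FPKM in Med23-/-, a log2 fold change of 0.08 (SE 0.12). Here too the groups overlapped, with Med23-/- replicate 3 the lowest of the 8 libraries, so that the same library was the highest for Sesn1 and the lowest for Sesn2. The difference in Sesn2 ranged from 0.03 without Med23-/- replicate 1 to 0.19 without Med23-/- replicate 3. Sesn2 exceeded Sesn1 in every library, by 2.44 ± 0.398 times in Med23+/+ and 2.23 ± 0.480 times in Med23-/-. Sesn3, the third sestrin, which is controlled mainly by FoxO factors, was the most abundant, with means of 69.6 ± 8.06 FPKM in controls and 81.5 ± 7.98 FPKM in Med23-/-, and it was not called (log2 fold change 0.23, limma adjusted p = 0.129). Under quantile normalization (0.34, adjusted p = 0.0315) and in replicates 1 and 2 alone (0.48, adjusted p = 0.0322) Sesn3 passed the threshold in limma, while in replicates 3 and 4 alone its value was -0.03.

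The death genes Bbc3 and Bax differed in level and in their spread. Bbc3 (chr7:16308393-16318205, plus strand) encodes Puma, a BH3-only protein that triggers the mitochondrial death pathway. It was the lowest of the 10 genes, with 5.87, 4.11, 3.56 and 3.65 FPKM in Med23+/+ and 7.22, 4.84, 3.20 and 5.22 FPKM in Med23-/-, a log2 fold change of 0.19 (SE 0.20). Replicate 1 was the highest in both genotypes, the groups overlapped, and the coefficient of variation of 25.04% in Med23+/+ and 32.3% in Med23-/- was the largest among the 10 genes. The difference ranged from 0.03 without Med23-/- replicate 1 to 0.36 without Med23-/- replicate 3.

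Bax (chr7:45461697-45466898, minus strand) encodes the protein that forms pores in the outer mitochondrial membrane, and it was the most abundant of the 10. It stood at 115, 108, 96.1 and 104 FPKM in Med23+/+ and at 145, 126, 131 and 144 FPKM in Med23-/-. All Med23-/- libraries were above all Med23+/+ libraries, with means of 106 ± 7.94 and 137 ± 9.36 FPKM, a ratio of 1.29 and a log2 fold change of 0.37 (SE 0.08). An annotated gene on the same strand, Gm45808, overlaps Bax by 915 bases, as Gm12981 overlaps Sesn2 by 6089 bases, 9930024M15Rik overlaps Sesn1 by 2584 bases and the pseudogene Gm29257 lies across 639 bases of Mdm4. Their share of the reads was not tested.

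Zmat3 (chr3:32334792-32366014, minus strand), a p53 target that encodes a zinc finger protein binding RNA, was at 46.8, 45.2, 39.5 and 46.3 FPKM in Med23+/+ and at 58.3, 58.9, 54.0 and 60.0 FPKM in Med23-/-. The groups did not overlap, and the replicates were close to each other. The means were 44.5 ± 3.35 and 57.8 ± 2.64 FPKM, a ratio of 1.30 and a log2 fold change of 0.37 (SE 0.08).

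Set together, 4 of the 10 genes were higher in every Med23-/- library than in any Med23+/+ library, 1 was lower, and 5 overlapped. Of all 12328 genes tested, 16.3% were separated in this way with Med23-/- higher and 15.3% with Med23-/- lower. The same 5 genes passed the adjusted p of the fit across all genes, 4 higher and 1 lower, where 15.9% of all genes were called higher and 14.1% lower. None of the 10 differed by more than 2-fold on the log2(FPKM + 1) scale. Of all genes tested, 2.98% were both called higher and past this size, and 1.75% both called lower and past it. Since the choice of these genes used this contrast, nothing is read from their counts. The median log2 fold change was 0.20 over the 10 genes and -0.01 over all genes tested, and by sign 7 of the 10 were higher and 3 lower.

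**Figure D2:**
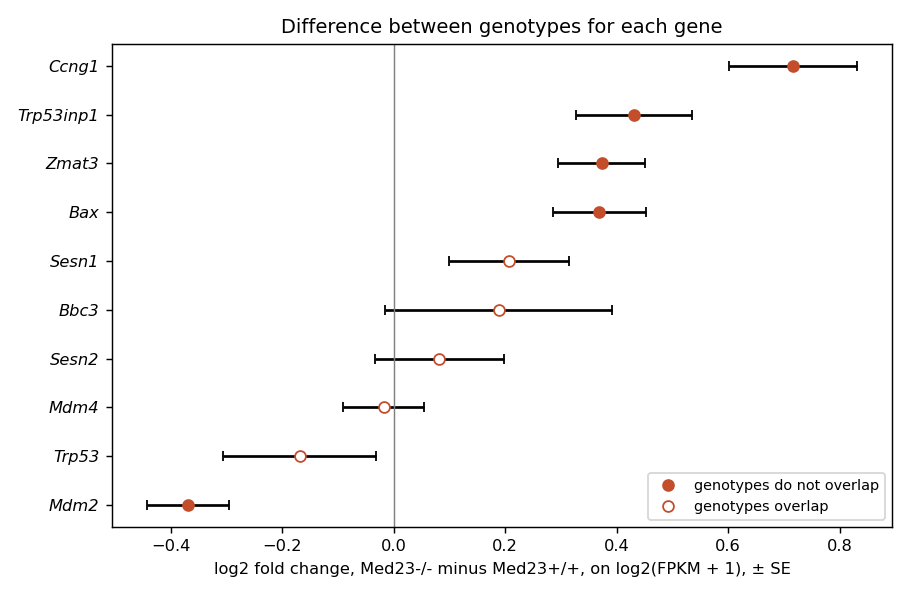
Log2 fold change, Med23-/- minus Med23+/+ on log2(FPKM + 1), of each gene (horizontal axis) with its SE from the fit across all genes. Filled points mark genes whose genotypes do not overlap, from Mdm2 at -0.37 to Ccng1 at 0.72, and open points mark the 5 that overlap.

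As a group the 10 genes were well expressed, with a median of 35.9 FPKM in Med23+/+ against 12.6 FPKM over all genes tested. In Med23+/+ the order of mean levels was Bax (106 FPKM), Zmat3 (44.5), Ccng1 (42.1), Trp53 (36.8), Trp53inp1 (36.3), Mdm2 (35.5), Mdm4 (34.0), Sesn2 (24.4), Sesn1 (10.2) and Bbc3 (4.30). Each neighbouring pair from Zmat3 down to Mdm4 overlapped between libraries, whereas Bax stood apart above them and Sesn2, Sesn1 and Bbc3 apart below. In Med23-/- the order was Bax (137 FPKM), Ccng1 (69.3), Zmat3 (57.8), Trp53inp1 (49.1), Mdm4 (33.6), Trp53 (33.0), Mdm2 (27.3), Sesn2 (26.0), Sesn1 (11.8) and Bbc3 (5.12). There Ccng1, Zmat3 and Trp53inp1 were separated from each other and from Mdm4, and only the neighbours from Mdm4 to Sesn2 overlapped.

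The other genes of the pathway were read from 6 lists, written from general knowledge with earlier results of these data known, so that they are no independent evidence of a direction. They were tested in the same limma fit over all 12328 genes, a gene being called at a Benjamini-Hochberg adjusted p under 0.05. Over the 3 lists of p53 targets, 43 of 51 genes were tested and the other 8 were under a mean of 1 FPKM. Of the 43, 22 (51.2%) were called higher in Med23-/- and 3 (6.98%) lower, beside 15.9% and 14.1% of all genes, and the median log2 fold change was 0.30. On the log2(FPKM + 1) scale, which understates the change of low genes, 10 were called and more than 2-fold higher and 0 more than 2-fold lower, although the FPKM means of Gadd45a, described below, had a ratio of 0.466. Pmaip1 and Tnfrsf10b, among the 22, passed the filter of 1 FPKM only through Med23-/-, so their calls add no support. In these bulk libraries, fewer cells of a type and less RNA per cell cannot be told apart.

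**Figure D3:**
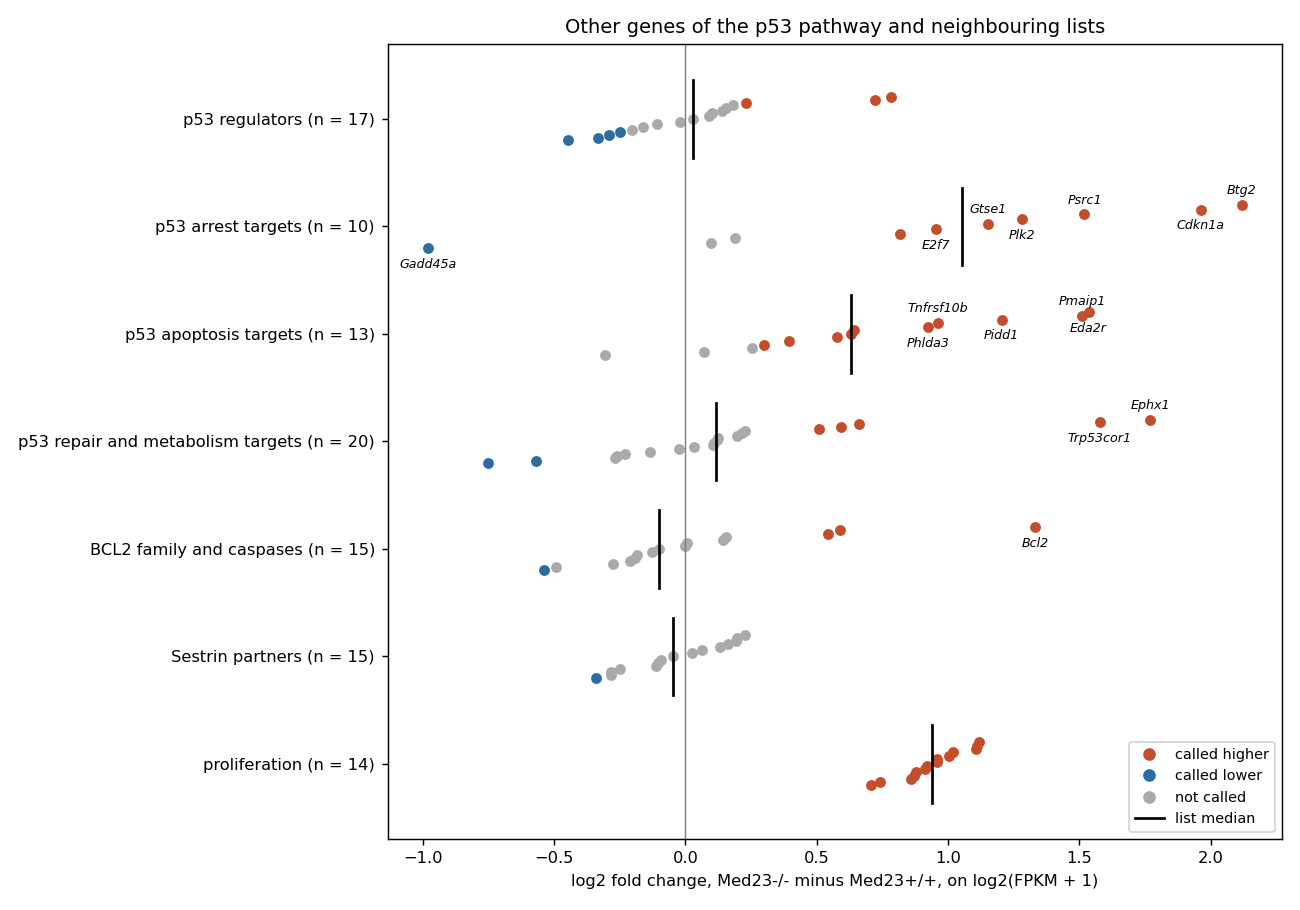
Log2 fold change, Med23-/- minus Med23+/+ on log2(FPKM + 1) (horizontal axis), of every tested gene of each list, called higher in orange, called lower in blue and not called in grey, with the list median as a black line. Genes are offset vertically within a list by rank only. The medians of the arrest (1.05), proliferation (0.94) and apoptosis (0.63) lists lie to the right of 0. Those of the repair and metabolism targets (0.115), regulators (0.03), BCL2 family (-0.10) and Sestrin partners (-0.05) lie nearer to it.

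Genes by which p53 is known to halt the cell cycle had the highest median of the 6 lists. Of 10 tested, 7 (70.0%) were called higher, 1 (10.0%) lower and 2 not, beside 15.9% and 14.1% of all genes. The median log2 fold change was 1.05. Cdkn1a, which encodes the CDK inhibitor p21 and is the best known p53 target, was at 13.8, 14.6, 6.15 and 9.12 FPKM in Med23+/+ and at 47.5, 40.2, 35.4 and 51.7 FPKM in Med23-/-. The lowest Med23-/- library was well above the highest control. The means of 10.9 ± 3.99 and 43.7 ± 7.30 FPKM differed 4.003-fold (log2 fold change 1.96, SE 0.23, adjusted p = 0.000315). Btg2, an antiproliferative gene, rose from 3.47 ± 0.750 to 18.5 ± 3.797 FPKM (log2 fold change 2.12, adjusted p = 4.2e-05). Psrc1, a microtubule protein, rose by 1.52 (adjusted p = 0.000506), and Plk2, a kinase of centriole duplication, rose by 1.28 (adjusted p = 0.000597). Gadd45a, which acts in growth arrest and DNA repair, went the other way, from 11.1 to 16.7 FPKM in Med23+/+ to between 4.98 and 6.72 FPKM in Med23-/- (log2 fold change -0.98, adjusted p = 0.000621), with every Med23-/- library below every control.

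Some genes of the arrest list are also genes of dividing cells. Psrc1 is transcribed towards mitosis, and so are Gtse1 (log2 fold change 1.15, adjusted p = 0.00839) and, around S phase, E2f7 (0.95, adjusted p = 0.0073), the last 2 named after their values were seen. Of 14 proliferation genes, 14 were called higher in Med23-/-, beside 15.9% of all genes, with a median log2 fold change of 0.94. Their summed level was 262 to 474 FPKM in the Med23+/+ libraries and 556 to 1025 FPKM in the Med23-/- libraries. Their part in the counts above was not tested.

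Of the apoptosis targets, 10 of 13 (76.9%) were called higher and 0 lower, beside 15.9% and 14.1% of all genes. The median log2 fold change was 0.63, and of the 3 not called the lowest was at -0.31. Eda2r, a death receptor of the TNF receptor family, was at 7.37, 10.8, 5.93 and 7.06 FPKM in Med23+/+ and at 24.6, 24.1, 19.8 and 28.2 FPKM in Med23-/- (log2 fold change 1.54, adjusted p = 0.000178). Pmaip1 (Noxa), a BH3-only protein like Puma, was low throughout, ranging from 0.371 to 1.08 FPKM in controls and from 2.59 to 4.36 FPKM in Med23-/-, and rose by 1.51 (adjusted p = 0.000239), a value that was 2.42 with a pseudocount of 0.1. Bbc3, the other BH3-only gene induced by p53, did not show such a separation, as given above. Pidd1, a death domain adaptor, rose by 1.20 (adjusted p = 0.00223), and Tnfrsf10b, the TRAIL receptor, rose by 0.96 (adjusted p = 0.00307) from a mean of 0.886 FPKM, and by 1.55 with a pseudocount of 0.1. Pmaip1 (0.626 FPKM) and Tnfrsf10b averaged under 1 FPKM in Med23+/+. Both passed the filter only through Med23-/-, where they are high, so their calls and their place in the count above are description only. Triap1, in the same list but known to protect cells from death, rose by 0.30 (adjusted p = 0.0398) and is named after its value was seen.

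Targets in DNA repair, metabolism and autophagy were mixed. Of 20 tested, 5 were called higher, 2 lower and 13 not, beside 15.9% and 14.1% of all genes. The median log2 fold change was 0.11. Ephx1, an epoxide hydrolase, rose from 4.03 ± 0.555 to 16.5 ± 4.74 FPKM (log2 fold change 1.77, adjusted p = 0.000123). Trp53cor1 (lincRNA-p21), a noncoding RNA annotated close to Cdkn1a, rose from 1.03 ± 0.393 to 5.03 ± 0.901 FPKM (log2 fold change 1.58, adjusted p = 0.000164). Rap2b, a small GTPase, and Ercc5, a nuclease of excision repair, rose by 0.66 (adjusted p = 0.00107) and 0.59 (adjusted p = 0.000426). Tigar, a phosphatase that diverts sugar from glycolysis, fell from 8.15 ± 0.303 to 4.44 ± 0.376 FPKM (log2 fold change -0.75, adjusted p = 0.000211). Ddit4 (Redd1), an mTORC1 inhibitor, fell from 77.2 ± 5.73 to 52.8 ± 12.6 FPKM (log2 fold change -0.57, adjusted p = 0.0190), a call with an adjusted p of 0.0601 under quantile normalization and of 0.171 in replicates 1 and 2 alone, where the value was -0.30.

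**Figure D4:**
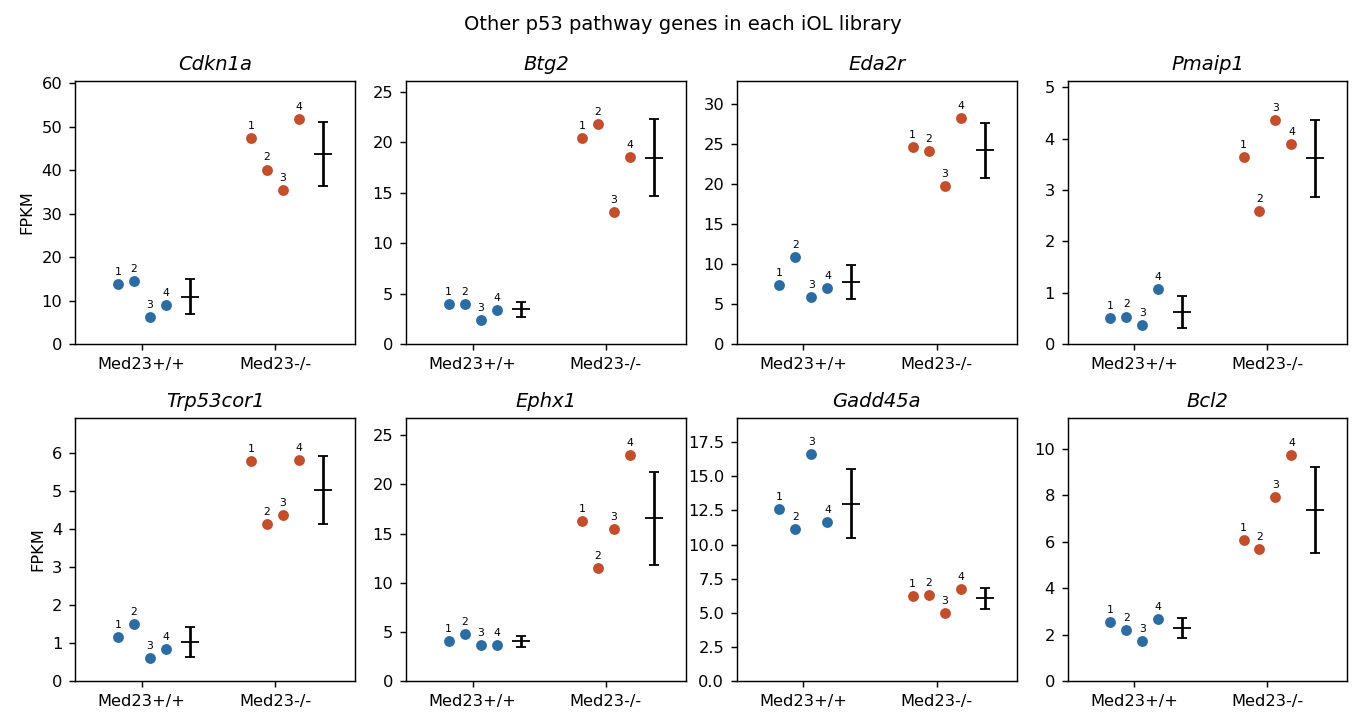
FPKM (vertical axes, starting at 0) of 8 pathway genes in every iOL library, with Med23+/+ in blue and Med23-/- in orange, points numbered by replicate and the black mark giving the mean ± SD (n = 4). Gadd45a is lower in every Med23-/- library and the other 7 genes are higher in every one.

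Of 17 regulators of p53 tested, 3 (17.6%) were called higher, 4 (23.5%) lower and 10 not, beside 15.9% and 14.1% of all genes, with a median log2 fold change of 0.03. Chek2, a kinase that phosphorylates p53 after DNA breaks, rose from 2.16 ± 0.372 to 4.48 ± 1.07 FPKM (log2 fold change 0.78, adjusted p = 0.00367). Chek1, its counterpart for stalled replication and itself higher in dividing cells, rose by 0.72 (adjusted p = 0.0261), and Ppm1d (Wip1), a phosphatase that reverses p53 activation, rose by 0.23 (adjusted p = 0.0490). The last 2 calls were marginal. Over all alternatives with 8 libraries the adjusted p of Chek1 reached 0.0525 and that of Ppm1d 0.0627, and without single libraries they reached 0.0682 and 0.112.

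Among the regulators called lower were Rpl5 and Rpl11, the ribosomal proteins that bind and inhibit Mdm2. Rpl5 went from 419 ± 45.0 to 309 ± 44.1 FPKM (log2 fold change -0.45, adjusted p = 0.0211) and Rpl11 from 938 ± 35.4 to 749 ± 96.2 FPKM (log2 fold change -0.33, adjusted p = 0.0476). Ribosomal protein genes have many near-identical processed copies that can share their reads, so that both values are uncertain, and both calls were lost under quantile normalization (adjusted p = 0.0760 for Rpl5 and 0.157 for Rpl11) and in replicates 3 and 4 alone (adjusted p = 0.19 and 0.483). Rfwd2 (Cop1), a ubiquitin ligase for p53, fell by 0.25 (adjusted p = 0.0393), with an adjusted p of up to 0.1002 when single libraries were left out.

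The BCL2 family and caspases carry out the mitochondrial death pathway. Of 15 tested, 3 were called higher, 1 lower and 11 not, beside 15.9% and 14.1% of all genes. The median log2 fold change was -0.10. Bcl2 encodes a survival protein that holds Bax in check. It was at 2.54, 2.20, 1.73 and 2.67 FPKM in Med23+/+ and at 6.07, 5.71, 7.92 and 9.73 FPKM in Med23-/-. The groups were far apart (log2 fold change 1.33, SE 0.16, adjusted p = 0.000369). Bcl2l11 (Bim), a BH3-only protein, rose by 0.59 (adjusted p = 0.00684). Cycs, which encodes cytochrome c, was called lower (-0.54, adjusted p = 0.0381), although Med23-/- replicate 4 at 28.5 FPKM was above every control. The call was lost, with an adjusted p of up to 0.106, when any library other than that one was left out.

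Bax was higher in Med23-/- together with Bcl2, 1 of its inhibitors. More abundant survival genes of the family, named after their values were seen, overlapped and were not called. Mean FPKM in Med23+/+ and Med23-/- was 39.0 and 33.9 for Mcl1, 17.3 and 14.1 for Bcl2l1, and 17.8 and 16.2 for Bcl2l2. The ratio to Bcl2 alone therefore does not describe Bax against all its inhibitors. The ratio of Bax to Bcl2 transcripts was 45.4, 48.8, 55.7 and 38.9 in Med23+/+ and 23.9, 22.1, 16.6 and 14.8 in Med23-/-. The means were 47.2 ± 7.003 and 19.3 ± 4.34, and the groups did not overlap. The ratio of Bax to Bbc3 overlapped, at 25.3 ± 3.89 and 28.7 ± 8.85. The ratio of Cdkn1a to Trp53 was 0.298 ± 0.115 in Med23+/+ and 1.33 ± 0.0672 in Med23-/-, and that of Cdkn1a to Mdm2 was 0.310 ± 0.118 and 1.61 ± 0.296, so that these 2 targets of p53 stood in different proportions in the 2 genotypes.

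**Figure D5:**
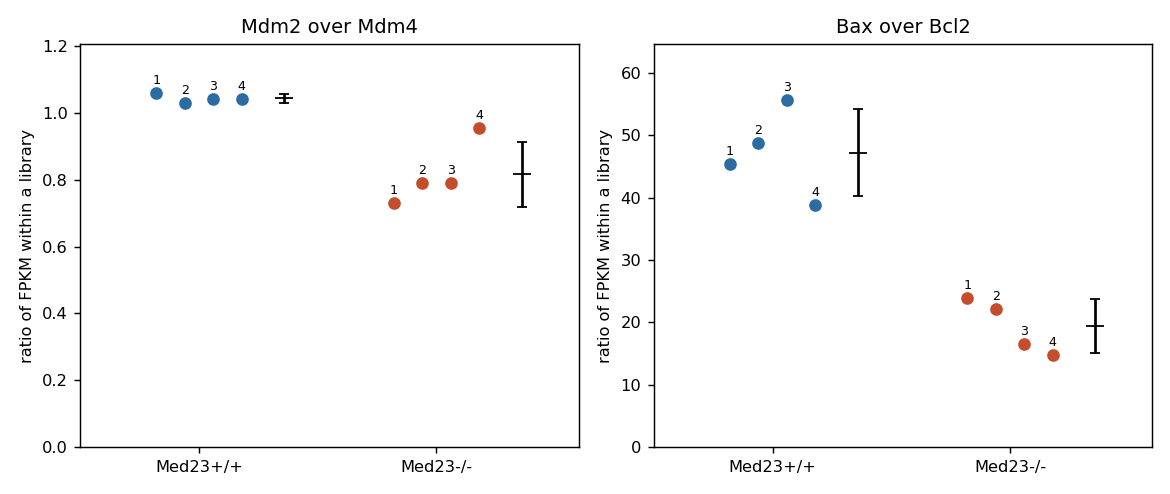
Ratio of FPKM within each iOL library (vertical axes, starting at 0) for Mdm2 over Mdm4 and for Bax over Bcl2, with Med23+/+ in blue and Med23-/- in orange, points numbered by replicate and the black mark giving the mean ± SD (n = 4). Both ratios are lower in every Med23-/- library, with means of 1.04 and 0.817 for Mdm2 over Mdm4 and 47.2 and 19.3 for Bax over Bcl2.

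The list of sestrin partners held Sesn3, the GATOR complexes, other amino acid sensors, and mTORC1 with its upstream regulators. Of 15 tested, 0 were called higher and 1 lower by limma, beside 15.9% and 14.1% of all genes, with log2 fold changes from -0.34 to 0.23, the last that of Sesn3, and a median of -0.05. The 1 called was Seh1l, a GATOR2 subunit that also belongs to the nuclear pore, which fell from 26.7 ± 1.58 to 20.9 ± 1.88 FPKM (log2 fold change -0.34, adjusted p = 0.0133).

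The mean level of Med23 itself was 12.5 ± 0.225 FPKM in controls and 8.26 ± 0.247 FPKM in the deleted group (log2 fold change -0.55, adjusted p = 0.000353), so that transcript reads remained in the deleted group, and whether they include the deleted exons could not be read from a value per gene. Markers of cell types were read beside these results. Of all genes tested, 15.9% were called higher and 14.1% lower. Of 8 markers of the OL lineage, 4 were called lower (among them Sox10, Cnp and Mbp), 2 higher (Pdgfra and Cspg4) and 2 not, so that the group labelled iOL differed between genotypes in its precursor and myelin markers. Neuron markers were called higher for 6 of 7 genes, with summed levels of 219 to 236 FPKM in Med23+/+ and 300.0 to 375 FPKM in Med23-/-. Most of each sum was Map2, with means of 161 FPKM in Med23+/+ and 202 FPKM in Med23-/-. The lowest of the 7, Rbfox3, was at 2.45 and 6.23 FPKM. Astrocyte markers were called lower for 2 of 6 (Gfap and Aqp4), with sums of 97.8 to 140.2 and 73.9 to 120 FPKM. The 7 microglia markers summed to at most 2.24 FPKM and the 5 endothelial markers to at most 0.368 FPKM in any library. Of 6 fibroblast and pericyte markers, 2 were tested and 0 called by limma, with sums of 1.16 to 9.51 FPKM in Med23+/+ and 2.98 to 16.6 FPKM in Med23-/-. The part of the precursor, neuron, astrocyte, fibroblast and pericyte RNA in the differences of the p53 pathway was not tested.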

How the data were processed

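Reads from 8 libraries (4 per genotype) were, per the labels and methods, trimmed (Cutadapt), aligned to mm10 (TopHat2, default parameters) and quantified by cuffdiff with options for bias and multi-read correction. Versions, annotation, library normalization and use of strand are not given in the sources used here. The authors deposited FPKM per gene and library, with pooled FPKM per genotype, log2 fold changes, test statistics, p-values and q-values of their own comparison, and only the FPKM of the libraries were used.

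Genes averaging 1 FPKM or more were put on the log2(FPKM + 1) scale, and the genotypes were set against each other in limma 3.58.1 under R 4.3.3, with moderated variances that followed a trend with the mean, all 8 libraries and no covariate, with Benjamini-Hochberg adjustment over all genes tested and a threshold of 0.05. The fit was tested on simulated data. Depth is unknown: from the spacing of values under 0.05 FPKM, 1 read was worth 0.728 to 1 times that in Med23+/+ replicate 1, and median-ratio factors ran from 0.978 to 1.04. The members and lists were chosen with earlier results of these data known. Genes named are the 10 members, Med23, Cdkn1a, Sesn3 and, from each of 6 lists, up to 4 genes with the largest and up to 4 with the smallest log2 fold change among those called in that direction, unless stated otherwise; a few that qualify are left out. In the lists, 3 symbols were matched by an older name. Promoter windows come from RefSeq and gene positions from GENCODE vM21. Tables were made with Python 3.11.15 and pandas 2.3.3 and figures with matplotlib 3.10.9.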

Additional observations from a re-analysis of the deposited data

Results flagged for a closer look

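In groups of 4 libraries, a library was singled out where its gap to the nearest other, divided by the range of the group, exceeded Dixon's critical value. Of 78 groups tested for the members and named genes, 4 met this, and chance gives about 1 in 20. Sesn1 stood at 13.4 FPKM in Med23-/- replicate 3, with the other 3 at 11.2 to 11.4. Ppm1d stood at 15.4 FPKM in the same library, with the others at 18.1 to 18.4, and Bcl2l11 at 3.95 FPKM there, with the others at 4.49 to 4.59. Chek2 stood at 6.07 FPKM in Med23-/- replicate 4, with the others at 3.83 to 4.03. Without that library Med23-/- was still called higher for Chek2, and without Med23-/- replicate 3 the adjusted p of Ppm1d was 0.0173 in limma.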

How the results depend on the processing

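No called result changed direction, and 164 of 169 alternative values of the 10 genes moved by less than 1 SD. The exceptions were Mdm4, Bax and Zmat3 under quantile normalization and Ccng1 in each pair of replicates, and the median over the 10 genes stayed between 0.12 and 0.27 with each library left out. Values with no filter, at 5 FPKM, without the variance trend or with the replicate block could not move. These settings leave the estimate of a gene unchanged, so that part of the 164 carries no information on stability. Of the 28 named genes called, 21 remained past the threshold in every fit of all 8 libraries that held them. Among these, Chek2, Pmaip1, Pidd1, Tnfrsf10b, Trp53cor1, Bcl2 and Bcl2l11 averaged under 5 FPKM and were not fitted at that filter. Pmaip1 and Tnfrsf10b passed the filter of 1 FPKM only through Med23-/-, so their place in this count adds no support. In replicates 1 and 2 alone and 3 and 4 alone, limma called 791 and 845 genes higher and 724 and 566 lower, with fewer samples. A fold above 2 left 367 higher and 216 lower, and a mean of at least 5 FPKM left 1281 higher. For the apoptosis targets 6 genes were higher in each pair of replicates and 3 above 2-fold, and 0 to 1 lower with 1 library left out. The repair list had 3 higher at 5 FPKM, 2 above 2-fold, 1 lower in replicates 1 and 2, 0 lower above 2-fold and 1 to 3 lower with 1 library left out; the arrest list had 0 lower above 2-fold on log2(FPKM + 1), the scale of every fold here. The regulators had 1 higher with no filter, at 5 FPKM and in each pair of replicates, 0 above 2-fold and 1 to 3 with 1 library left out (1 without Med23+/+ replicate 3 or 4 or Med23-/- replicate 4). Of these, 1 was lower under quantile normalization, 0 in each pair, 0 above 2-fold and 1 to 3 with 1 library left out. The BCL2 family had 1 higher at 5 FPKM, in replicates 1 and 2 and above 2-fold, and 0 lower with no filter, under quantile normalization, in replicates 3 and 4 and above 2-fold, or 0 to 2 with 1 library left out. The Sestrin partners had 1 higher with no filter, at 5 FPKM, under median-ratio scaling and in replicates 1 and 2, 2 under quantile normalization and 0 to 1 with 1 library left out, and 2 lower under median-ratio scaling, 0 in replicates 3 and 4, 0 above 2-fold and 1 to 2 with 1 library left out. The replicate numbers share only a number: same-numbered libraries correlated at 0.130, -0.0960, -0.0260 and 0.159 in their deviations. With the replicate block 2085 genes were higher and 1835 lower, with 2 BCL2 family genes and 2 Sestrin partners lower. The cause of these differences was not tested. Without counts the depth limit of low genes such as Pmaip1 is unknown.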
